A study of Homo sapiens with 4 samples.

Results

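The genes described are 40 members of the cell cycle and DNA replication machinery: the factors that license and fire replication origins, the cyclins, their kinases, the kinase inhibitors, and regulators of mitosis. They were chosen by symbol, and all 40 were found among the 17894 genes of the deposited tables. Of them, 39 reached the minimum used for comparisons, a mean of at least 1 FPKM over the 4 libraries, as did 12697 genes in all. FPKM are fragments assigned to a gene, scaled for transcript length and for the number of mapped fragments.

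RNA-SEQ libraries were made from cells of the human embryonic stem cell line H1, cultured on the mouse stromal line mAGM-S3 under hematopoietic conditions and sorted at day 2 for TRA-1-85, an antigen of human cells. The control library came from wild type H1 cells, and the R-spondin2 library from wild type cells that received 20 ng/mL of R-spondin2 for 1 day, the first of differentiation. The remaining pair came from untreated LGR4-/- H1 cells, numbered 1 and 2 in the labels and called clones here, since LGR4 is a receptor for R-spondins. Every library therefore stands for 1 sample, and how the LGR4-/- lines were made is not given in the sources used here.

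Before replication, the origin recognition complex, CDC6 and CDT1 load the MCM2-7 helicase on DNA in G1. D- and E-type cyclins with their kinases drive entry into S phase, in part by releasing E2F factors from RB-family proteins. CDC45 and the GINS complex then complete the active helicase, and A- and B-type cyclins with CDK1 lead into mitosis, which ends when the anaphase-promoting complex with CDC20 marks its substrates for destruction. Human pluripotent stem cells are known for a short G1 phase and for continuous proliferation. In bulk RNA, fewer cells in a phase and less RNA per cell cannot be told apart.

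LGR4 itself was listed at 21.8 FPKM in control and 24.3 FPKM with R-spondin2. Clone 1 had 7.40 FPKM, or 34.0% of control, and clone 2 had 13.9 FPKM, or 64.1%. LGR4 RNA was thus lower in both LGR4-/- libraries but not absent from either, and the tables do not show the edited sequence. The sequencing depth, estimated from the steps between low FPKM values, was between 8680000 and 8910000 reads per library, so that depth differed little between them.

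Sequence words known from the promoters of these genes are shown first. The E2F and CHR words defined below largely follow the replication and mitosis roles by which the genes are grouped, whereas CCAAT does not. Promoters were taken from RefSeq (GRCh38.p14) as 250 bases before to 50 bases after each start, 300 in all, and 32 of the 40 genes were matched. MCM4, MCM5, CCND1, CCND2, CCNE2, CDK2, AURKA and CDKN1C were not matched. An E2F word, taken as TTTCCCGC, TTTCGCGC, TTTGCCGC or TTTGGCGC on either strand, was found in 11 of the 32 genes (34.4%). It was found in 3.99% of all 27305 genes with a RefSeq promoter. Those genes were not limited to genes expressed here, so the shares of promoters are not matched for expression. An E2F word was present in 9 of the 14 matched licensing, origin and fork genes (64.3%), including all 4 matched MCM2-7 genes. Below is a window of 30 bases around the word in these 9 genes, 5′ to 3′ on the strand of the gene, with the words in capitals; some words overlap their own reverse complement.
MCM2: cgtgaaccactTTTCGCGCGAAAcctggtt
MCM3: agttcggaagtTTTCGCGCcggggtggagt
MCM6: ggtcaggTTTGGCGCGAAAtctccagctcc
MCM7: ggggggcgacgTTTCGCGCcaatttcggtt
CDC6: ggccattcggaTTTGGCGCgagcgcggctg
CDT1: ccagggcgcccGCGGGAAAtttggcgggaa
GINS1: agctttgttcgGCGCCAAAgcgcggagcgg
GINS2: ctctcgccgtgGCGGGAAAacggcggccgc
PCNA: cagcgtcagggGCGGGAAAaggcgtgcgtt

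These windows lie at MCM2 chr3:127598402-127598431 (+ strand), MCM3 chr6:52284728-52284757 (- strand), MCM6 chr2:135876511-135876540 (- strand), MCM7 chr7:100101388-100101417 (- strand), CDC6 chr17:40287875-40287904 (+ strand), CDT1 chr16:88803743-88803772 (+ strand), GINS1 chr20:25407667-25407696 (+ strand), GINS2 chr16:85688967-85688996 (- strand), PCNA chr20:5126663-5126692 (- strand). Those of MCM2, MCM3, MCM7, CDC6 and GINS1 span the start, and the other 4 lie wholly upstream of it. The cell cycle homology region (CHR), known from genes expressed in G2 and mitosis, was searched as TTTGAA or TTCGAA and the CCAAT box as CCAAT, both on either strand. A CHR word was found in 6 of the 10 matched A- and B-type cyclin and mitosis genes (60%), namely BUB1, CCNB2, CDC20, MKI67, PLK1 and TOP2A. The share was 19.5% of the 27305 genes with a RefSeq promoter. CCAAT was found in all 10 of the matched cyclin and mitosis genes, against 39.7% of the 27305 genes. It was also found in 12 of the 14 matched licensing, origin and fork genes (85.7%), so it did not separate the roles. The 100 bases before the start are given next for the cyclin and mitosis genes with both words there, with both words in capitals; in MKI67 a CHR word and a reversed CCAAT share a base.
CCNB2: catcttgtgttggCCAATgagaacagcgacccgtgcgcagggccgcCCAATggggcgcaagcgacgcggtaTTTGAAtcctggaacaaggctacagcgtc
CDC20: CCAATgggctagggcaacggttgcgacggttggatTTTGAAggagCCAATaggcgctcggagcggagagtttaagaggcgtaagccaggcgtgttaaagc
PLK1: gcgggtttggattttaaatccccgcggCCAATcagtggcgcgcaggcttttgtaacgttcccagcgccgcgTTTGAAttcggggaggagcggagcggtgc
MKI67: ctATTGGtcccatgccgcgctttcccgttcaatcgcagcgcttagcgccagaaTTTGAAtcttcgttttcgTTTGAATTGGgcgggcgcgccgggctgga

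The latter windows lie at CCNB2 chr15:59105046-59105145 (+ strand), CDC20 chr1:43358881-43358980 (+ strand), PLK1 chr16:23678789-23678888 (+ strand), MKI67 chr10:128126424-128126523 (- strand). MCM6 was the 1 licensing, origin or fork gene with a CHR word. CDK1, a kinase and so not in that set, held an E2F word, a CHR word and CCAAT in its promoters. CDC25A was the only matched gene grouped here under mitosis and proliferation that had an E2F word. A match describes these letters and not the binding of a factor.

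As a group the 40 genes were abundantly expressed in all libraries. Their FPKM summed to 2272 in control, 2150.2 with R-spondin2, 2418 in clone 1 and 2361 in clone 2, which is 0.521%, 0.496%, 0.555% and 0.540% of all FPKM. The sum was thus lowest with R-spondin2 and highest in clone 1. The highest single gene was PCNA, at a mean of 197 FPKM, and the lowest past the minimum was CCNE2, at 5.63 FPKM.

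**Figure D1:**
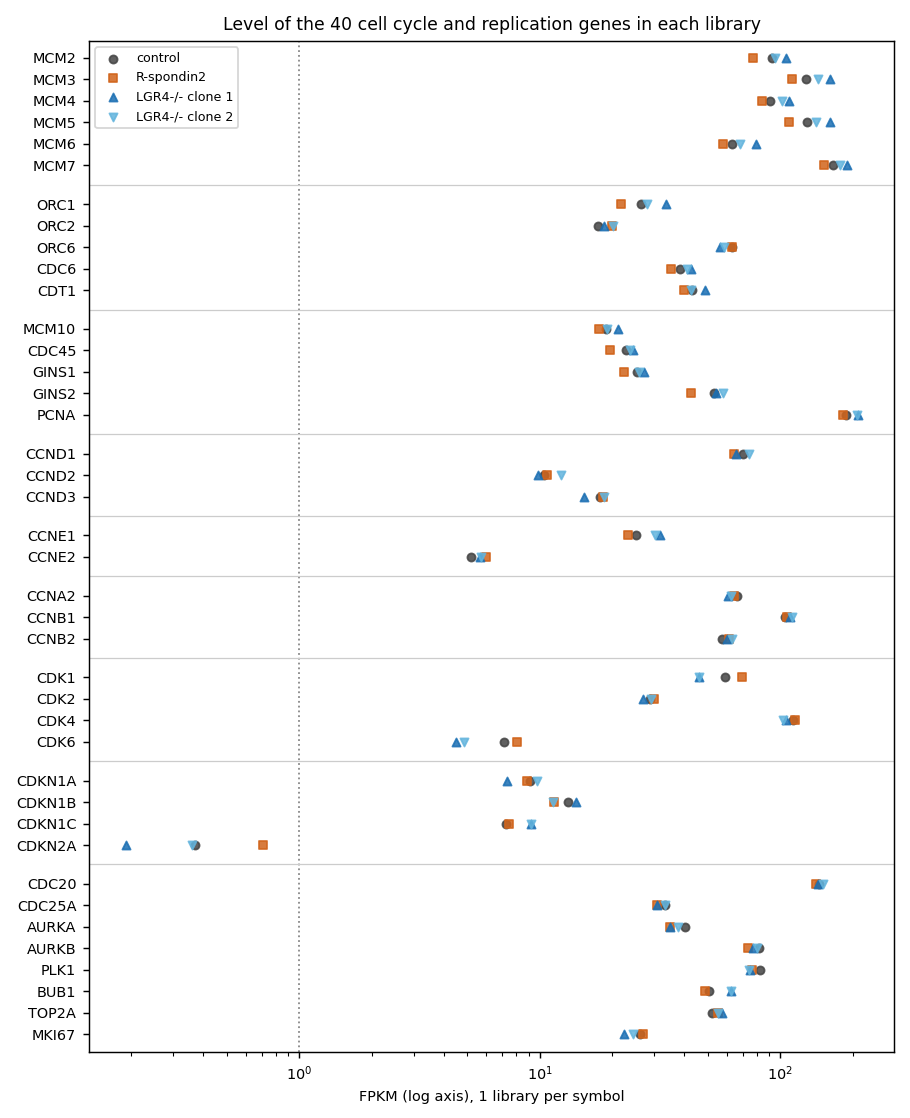
Level of each of the 40 genes in FPKM on a log axis, with 1 symbol per library and grey lines between role groups; the dotted line marks 1 FPKM. The 4 symbols of a gene mostly lie close together, MCM2-7 are ordered R-spondin2, control, clone 2, clone 1 from low to high, and CDKN2A alone lies under 1 FPKM.

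None of the 39 genes differed 2-fold, that is by 1 in log2(FPKM+1), in any comparison. With R-spondin2 the count was 0 of 39, where 0.221% of all genes passed. Against control it was likewise 0 of 39 in both clones together, where 1.32% of all genes passed in the same direction in both. Taken singly, clone 1 and clone 2 also had 0 of 39, where 3.52% and 1.5% of all genes passed. Between clone 2 and clone 1, 0 of 39 genes and 0.252% of all genes passed. At 1.5-fold the counts were also 0 of 39, against 2% of all genes with R-spondin2, 5.7% in both clones (11.6% in clone 1 and 7.03% in clone 2 alone) and 2.41% between the clones. The differences of the genes therefore ran from -0.31 to 0.23 with R-spondin2, from -0.56 to 0.34 in clone 1 and from -0.46 to 0.30 in clone 2, all in log2(FPKM+1).

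Differences of any size were counted next. With R-spondin2, 26 of the 39 genes were lower than in control and 13 higher, where 51.9% of all genes were lower and 47.8% higher. ORC6 was among the lower at only -0.0004. The median difference was -0.09 (all genes, -0.01). In both clones 21 genes were higher than control and 10 lower, where 42.5% and 35.5% of all genes were, and the median of the clones' mean difference was 0.08 (all genes, 0.02). Clone 2 was higher than clone 1 for 19 genes and lower for 20, where 49.2% and 50.4% of all genes were. Because R-spondin2 and the clones were set against the same control library, opposite directions in them are not independent of each other.

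**Figure D2:**
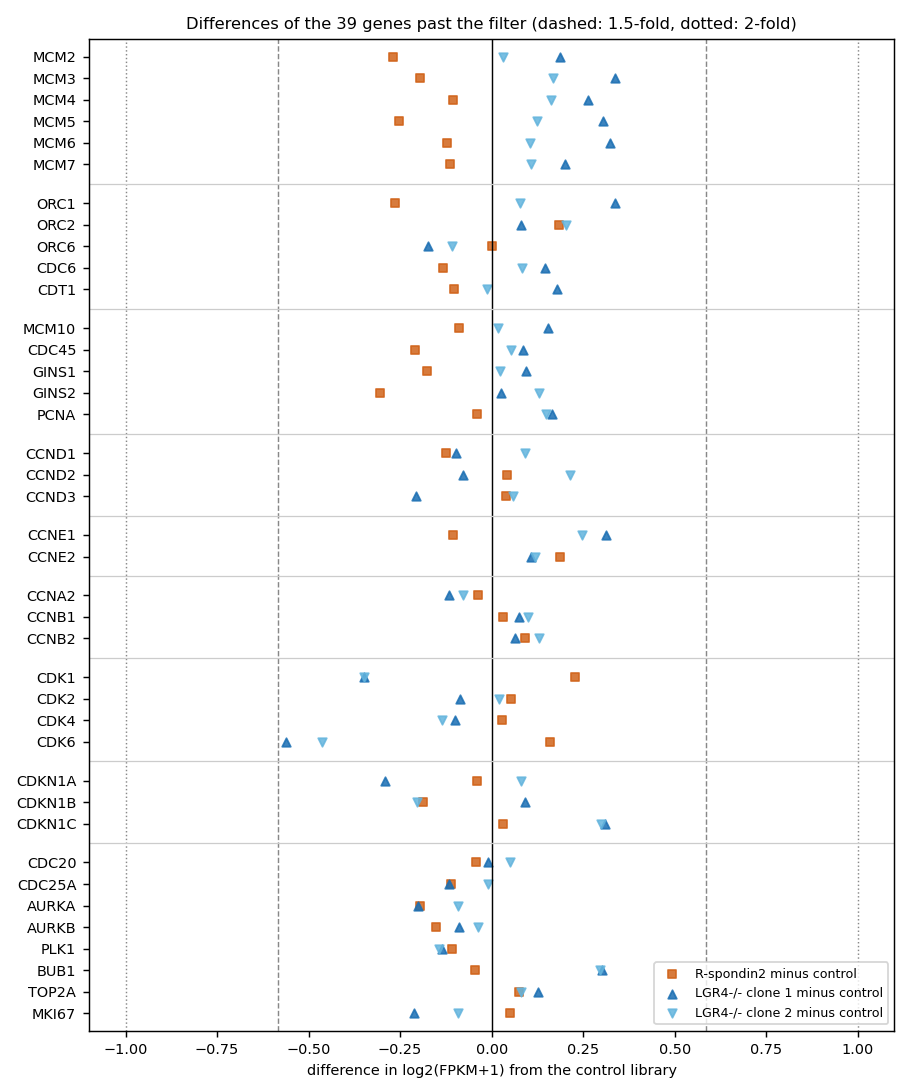
Difference of each of the 39 genes from the control library in log2(FPKM+1), for R-spondin2 (squares), clone 1 (upward triangles) and clone 2 (downward triangles), grouped by role. No symbol reaches the dashed lines at 1.5-fold. The 6 MCM2-7 genes lie left of 0 with R-spondin2 and right of 0 in both clones. Of the kinases, CDK1, CDK4 and CDK6 show the opposite arrangement.

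The MCM2-7 genes encode the 6 subunits of the replicative helicase. MCM2 was at 92.9 FPKM in control, 76.9 with R-spondin2, 106 in clone 1 and 94.9 in clone 2. MCM3 was at 128, 112, 162 and 144 FPKM in the same order of libraries. MCM7, the highest of the 6, was at 165, 152, 189.8 and 178 FPKM. For all 6 genes the order from low to high was R-spondin2, control, clone 2 and clone 1.

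With R-spondin2 the 6 genes differed from control by between -0.27 (MCM2) and -0.10 (MCM4) in log2(FPKM+1). In clone 1 they differed by 0.19 to 0.34 and in clone 2 by 0.03 to 0.17, with MCM3 having the largest difference in each. MCM5 was at 129.9, 109, 161 and 141 FPKM, MCM4 at 90.7, 84.3, 109 and 102 FPKM, and MCM6 at 62.98, 57.8, 79.1 and 67.8 FPKM. The sum of the 6 genes was 670 FPKM in control, 592 with R-spondin2, 806 in clone 1 and 728 in clone 2. All 6 were lower in clone 2 than in clone 1, by 0.09 to 0.22 in log2(FPKM+1), with a median of -0.16 for clone 2 against clone 1 beside 0.12 for clone 2 against control.

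The precision that sequencing depth allows was computed from the reads that each FPKM implies. MCM2 rested on about 2997 reads in control and 2418 with R-spondin2. The log2 ratio of R-spondin2 to control was -0.27, with a 95% Clopper-Pearson interval of -0.35 to -0.19, and the intervals of all 6 genes lay below 0 (9.95% of all genes). In clone 1 all 6 intervals lay above 0 (21.4% of all genes), as did those of MCM3 to MCM7 in clone 2 (16.8%). The ratio of MCM2 in clone 2 was 0.03, and its interval (-0.04 to 0.11) included 0. These intervals cover counting error only and compare libraries. They narrow as reads increase, so the shares of all genes are not matched for abundance. With 1 control library and 1 R-spondin2 library, the spread between cultures of these conditions is unknown.

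Of the 5 factors that mark origins and load the helicase, ORC1, the largest subunit of the origin recognition complex, followed the order of the helicase genes. ORC1 was at 26.3 FPKM in control, 21.8 with R-spondin2, 33.5 in clone 1 and 27.8 in clone 2, a difference of -0.26 with R-spondin2, 0.34 in clone 1 and 0.08 in clone 2. ORC6, the highest of the group and another subunit, was at 63.2 FPKM in control and with R-spondin2 alike, and at 56.0 and 58.6 FPKM in the clones. The clones were thus lower than both wild type libraries for ORC6, by 0.17 and 0.11 in log2(FPKM+1).

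ORC2 had its lowest value in control, at 17.5 FPKM, and stood at 20.0, 18.5 and 20.3 FPKM in the other libraries. CDC6, the loading ATPase, was lowest with R-spondin2 (35.0 FPKM) and highest in clone 1 (42.7 FPKM). CDT1, its partner in loading, showed the same extremes at 39.95 and 48.8 FPKM, while control (43.0 FPKM) and clone 2 (42.6 FPKM) were nearly equal. Of the group, 4 of 5 genes were lower with R-spondin2 (51.9% of all genes), though ORC6 only at -0.0004 in log2(FPKM+1). The counting intervals of ORC1 and CDC6 lay below 0 there, and those of ORC6 and CDT1 included 0. In both clones 3 of 5 were higher (42.5% of all genes). Of these, the intervals of ORC1 and CDC6 included 0 in clone 2, and that of ORC2 in clone 1.

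All 5 genes of origin firing and the fork were lower with R-spondin2 (51.9% of all genes) and higher in both clones (42.5%). These differences were at most 0.31 in log2(FPKM+1). With R-spondin2 the counting intervals of PCNA, CDC45 and MCM10 included 0. Only PCNA had intervals above 0 in both clones. GINS2, a subunit of the GINS complex, had the largest difference of the 39 genes with R-spondin2. It was at 53 FPKM in control, 42.7 with R-spondin2, 53.9 in clone 1 and 58.1 in clone 2, lowest with R-spondin2 and highest in clone 2. Its log2 ratio of implied reads was -0.31 with R-spondin2 (interval, -0.43 to -0.19) and 0.13 in clone 2 (interval, 0.02 to 0.24).

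PCNA, the sliding clamp of DNA polymerases, was at 188 FPKM in control, 182 with R-spondin2, 210.2 in clone 1 and 208 in clone 2. The clones lay above both wild type libraries, by 0.16 and 0.15 over control. GINS1, CDC45 and MCM10, which join the helicase as it is activated, were between 17.7 and 27.1 FPKM in all libraries. Each of these 3 genes was lowest with R-spondin2 and highest in clone 1.

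Among the G1 cyclins the D-type genes separated the clones. CCND1, the highest of them, was at 69.8 FPKM in control, 64.0 with R-spondin2, 65.3 in clone 1 and 74.5 in clone 2. CCND2 was at 10.4, 10.8, 9.85 and 12.3 FPKM, and CCND3 at 17.8, 18.3, 15.2 and 18.5 FPKM. All 3 were lower than control in clone 1 and higher than control in clone 2, a difference between the clones of 0.19 to 0.29 in log2(FPKM+1). The counting intervals of clone 2 over clone 1 lay above 0 for all 3. Against control, only CCND1 had intervals that excluded 0 in both clones. The intervals of CCND3 included 0 in both clones, and that of CCND2 in clone 1.

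CCNE1, an E-type cyclin that activates CDK2 at the start of S phase, was at 25.2 FPKM in control, 23.4 with R-spondin2, 31.6 in clone 1 and 30.1 in clone 2. Both clones were above both wild type libraries, by 0.31 and 0.25 over control, with counting intervals above 0. CCNE2, its paralog, was at 5.16, 6.01, 5.64 and 5.69 FPKM, lowest in control. About 125 to 142 reads were implied for CCNE2 per library, and no interval against control excluded 0.

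The A- and B-type cyclins differed least. CCNB1, which with CDK1 forms the mitotic kinase, was the highest of them, at 105 FPKM in control, 107 with R-spondin2, 110.3 in clone 1 and 112 in clone 2. CCNB2 was at 57.5, 61.2, 60.1 and 62.96 FPKM, and CCNA2, which acts in S phase and G2, at 65.9, 64.1, 60.7 and 62.3 FPKM. No difference from control exceeded 0.13 in log2(FPKM+1) in this group.

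Among the kinases, CDK1, CDK4 and CDK6 had their highest value with R-spondin2 and lower values in both clones than in control. CDK1, the mitotic kinase, was at 59.0 FPKM in control, 69.3 with R-spondin2, 46.1 in clone 1 and 46.2 in clone 2. R-spondin2 was the highest library and the clones were nearly equal and lowest, with differences of 0.23, -0.35 and -0.35. The log2 ratio of implied reads was 0.23 with R-spondin2 (interval, 0.10 to 0.36) and -0.36 in each clone (interval, -0.50 to -0.21).

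CDK6, a partner of the D-type cyclins, was at 7.09 FPKM in control, 8.04 with R-spondin2, 4.48 in clone 1 and 4.87 in clone 2. These were the largest differences of any of the 39 genes in the clones, -0.56 and -0.46. As a plain ratio of FPKM, without the pseudocount, CDK6 stood at 63.2% of control in clone 1, past 1.5-fold, and at 68.7% in clone 2, within it. On the shorter of its listed transcripts only about 93 reads were implied in control and 58 in clone 1, so that the log2 ratio of clone 1 had a wide interval of -1.18 to -0.19. CDK4, the related kinase and the highest of the group, was at 113, 115, 105 and 103 FPKM, and CDK2 lay between 27.0 and 29.8 FPKM. The ratio of CDK4 to CDK6 was 15.9 in control, 14.4 with R-spondin2, 23.5 in clone 1 and 21.1 in clone 2, higher in both clones.

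Counting over the 4 kinases, all were higher with R-spondin2 (47.8% of all genes), though the counting intervals of CDK2, CDK4 and CDK6 included 0 there. In both clones 3 were lower (35.5% of all genes). CDK2 was the exception, with -0.09 in clone 1 and 0.02 in clone 2.

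**Figure D3:**
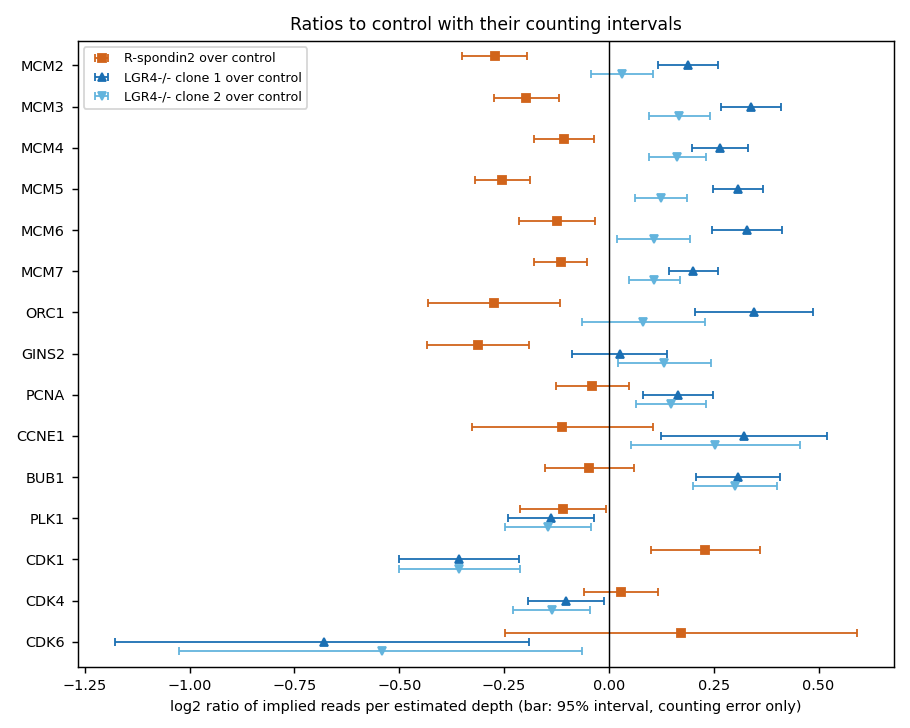
Log2 ratio of implied reads to control, scaled by estimated depth, for 15 of the genes, with 95% intervals for counting error only (squares, R-spondin2; upward triangles, clone 1; downward triangles, clone 2). The MCM2-7 intervals lie below 0 with R-spondin2 and above 0 in clone 1, whereas those of CDK1 lie above 0 with R-spondin2 and below 0 in both clones; the interval of CDK6 is the widest.

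The inhibitors differed without a common direction. CDKN1C (p57) was at 7.27 FPKM in control, 7.45 with R-spondin2, 9.25 in clone 1 and 9.18 in clone 2, higher by 0.31 and 0.30 in the clones, although its counting intervals included 0. CDKN1B (p27), the highest, was at 13.2, 11.5, 14.1 and 11.3 FPKM, so that clone 2 resembled R-spondin2 rather than clone 1. CDKN1A (p21), a target of p53, was at 9.16, 8.88, 7.30 and 9.74 FPKM, and at 0.37 it had the largest difference between clone 2 and clone 1 of the 39 genes.

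CDKN2A, whose products include p16, was the single gene under the minimum, at 0.37 FPKM in control, 0.71 with R-spondin2, 0.19 in clone 1 and 0.36 in clone 2. About 4, 8, 2 and 4 reads were implied, too few for a comparison.

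The mitosis and proliferation genes had differences of both signs. CDC20, the activator of the anaphase-promoting complex, was the highest, at 145 FPKM in control, 141 with R-spondin2, 144 in clone 1 and 150.2 in clone 2. BUB1, a spindle checkpoint kinase, was at 50.5, 48.9, 62.5 and 62.2 FPKM. The clones were nearly equal and stood above both wild type libraries for BUB1, by 0.30 each, with a log2 ratio of implied reads of 0.31 (interval, 0.21 to 0.41) in clone 1 and 0.30 (interval, 0.20 to 0.40) in clone 2.

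AURKA, a centrosomal kinase, had its highest value in control, at 40.1 FPKM, with 34.9, 34.7 and 37.6 FPKM in the other libraries. MKI67, the gene of the Ki-67 antigen of cycling cells, was at 26.1, 27.0, 22.4 and 24.4 FPKM. Lower values in both clones were thus found for MKI67, AURKA and also PLK1, a mitotic kinase at 82.4, 76.3, 74.9 and 74.5 FPKM, as well as for AURKB and CDC25A. TOP2A, the topoisomerase that untangles sister chromatids, was higher in both clones by 0.13 and 0.08. The sum of the 8 genes stayed between 488 and 517 FPKM, and the ratio of the MCM2-7 sum to it was 1.31 in control, 1.21 with R-spondin2, 1.60 in clone 1 and 1.41 in clone 2.

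Counted over the 39 genes, 13 had a counting interval below 0 with R-spondin2 (9.95% of all genes with an interval) and 2 above 0 (8.76%). The 13 were MCM2-7, ORC1, CDC6, GINS1, GINS2, CCND1, AURKA and PLK1, and the 2 were CDK1 and ORC2. In both clones 9 had intervals above 0 (12.6% of all genes), which were MCM3 to MCM7, PCNA, CCNE1, BUB1 and TOP2A, and 5 below 0 (10.4%), which were CDK1, CDK4, CDK6, PLK1 and MKI67. Clone 2 was below clone 1 for 9 (10% of all genes), which were MCM2-7, ORC1, CDT1 and CDKN1B, and above it for 5 (9.77%), which were CCND1, CCND2, CCND3, CDKN1A and MKI67. PLK1 was the only gene below control in all 3 other libraries by these intervals. Intervals narrow as reads increase, and the 39 genes start at a mean of 5.63 FPKM where all genes start at 1 FPKM. The shares of all genes are therefore not matched for abundance.

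A fit with the clones as replicates was made with limma, in which the lone control library is assumed to vary as the clones do. At an adjusted p of 0.05, 0 of the 39 genes and 0% of all genes were called. The lowest adjusted p among the genes was 0.119 (limma, Benjamini-Hochberg over 12697 genes), for CDK1, with a difference of -0.35 ± 0.08 (SE). Without adjustment, 6 of the 39 genes had a p under 0.05 in limma, where 18.4% of all genes did. They were MCM3, MCM4, CCNE1 and BUB1, higher in both clones, and CDK1 and CDK6, lower in both.

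The genes around these members in the same pathways were examined by fixed lists, none of which had a gene past 2-fold with R-spondin2 or in both clones. Their counts of genes that were lower or higher stand beside those of all genes, of which 51.9% were lower and 47.8% higher with R-spondin2, and 35.5% lower and 42.5% higher in both clones. Of 19 other licensing and firing factors, 14 were lower with R-spondin2 and 10 were higher in both clones. TICRR, which prepares origins for firing, was lowest with R-spondin2 (-0.28), and MCM8, a helicase of repair, highest (0.11). In the mean of the clones ORC3 was highest (0.30), at 21.3 FPKM in control and 27.9 and 25.2 FPKM in the clones, and TIPIN, a fork protection factor, lowest (-0.22).

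Of 24 DNA polymerase and fork genes, 18 were lower with R-spondin2, from RPA2 at -0.27 to POLD4 at 0.19, and 13 were higher in both clones. PRIM1, the catalytic subunit of primase, was at 18.9 FPKM in control, 21.1 with R-spondin2, 29.1 in clone 1 and 25.2 in clone 2, and at 0.50 was the highest of the list in the mean of the clones. FEN1, the flap endonuclease, was the lowest (-0.15). Unlike the MCM2-7 genes, PRIM1 was not lower with R-spondin2.

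Among 10 nucleotide supply genes, SAMHD1, a phosphohydrolase that degrades deoxynucleotides, was at 2.33 FPKM in control, 1.32 with R-spondin2, 7.30 in clone 1 and 5.28 in clone 2. It was lower with R-spondin2 (-0.52) and higher in the clones (1.32 and 0.92), the largest differences of any gene in these surrounding lists, past 2-fold in clone 1 and not in clone 2. TYMS, thymidylate synthase, was at 104, 112, 79.7 and 82.1 FPKM, the lowest of the list in the mean of the clones (-0.37). RRM2, a ribonucleotide reductase subunit, was the highest with R-spondin2, at 0.13.

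The E2F, RB and MuvB regulators showed 14 of 20 genes lower with R-spondin2, and 7 higher and 8 lower in both clones. E2F6, a repressor, was the highest with R-spondin2, at 7.45 FPKM in control and 9.96 FPKM with R-spondin2, and E2F2 the lowest (-0.20). In the mean of the clones TFDP2, an E2F partner, was the highest (0.36) and LIN54, the CHR-binding subunit of MuvB, the lowest (-0.34). Of 13 other kinase inhibitors and activators past the minimum, 10 were lower with R-spondin2, with CDC25B, a phosphatase that activates CDK1, lowest both there (-0.23) and in the clones (-0.31). CCNH, the cyclin of the CDK-activating kinase, was the highest with R-spondin2 (0.14), and CKS2, a kinase subunit, was the highest in the clones (0.19). CDKN2B and CDKN2C stayed under the minimum, and CDKN2C was listed at 0 in both clones.

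Of 21 p53-related genes past the minimum, the median difference was -0.04 with R-spondin2 and 0.00 in the mean of the clones, and 3 genes passed 1.5-fold in both clones (5.7% of all genes). GADD45A was at 47.2 FPKM in control, 52.4 with R-spondin2, 18.7 in clone 1 and 26.3 in clone 2. PLK2 was at 23.7, 24.2, 10.4 and 14.5 FPKM, and BTG2, an antiproliferative factor, at 11.4, 10.7, 6.10 and 6.93 FPKM. In these 3 growth arrest or stress genes the clones lay below both wild type libraries. DDB2, a DNA damage sensor, was the highest in the clones (0.41), and BBC3, which promotes apoptosis, the lowest with R-spondin2 (-0.34).

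The growth factor-responsive G1 genes numbered 10, and IER3, the highest of them with R-spondin2 (0.20), alone passed 1.5-fold in both clones, at 230.4 FPKM in control, 266 with R-spondin2, 111 in clone 1 and 148 in clone 2. ODC1, the first enzyme of polyamine synthesis, was at 413, 442, 251 and 307 FPKM. MYCN was the lowest with R-spondin2 (-0.52), at 14.6 FPKM against 21.2 FPKM in control. IER2 was the highest in the mean of the clones, at 0.41.

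**Figure D4:**
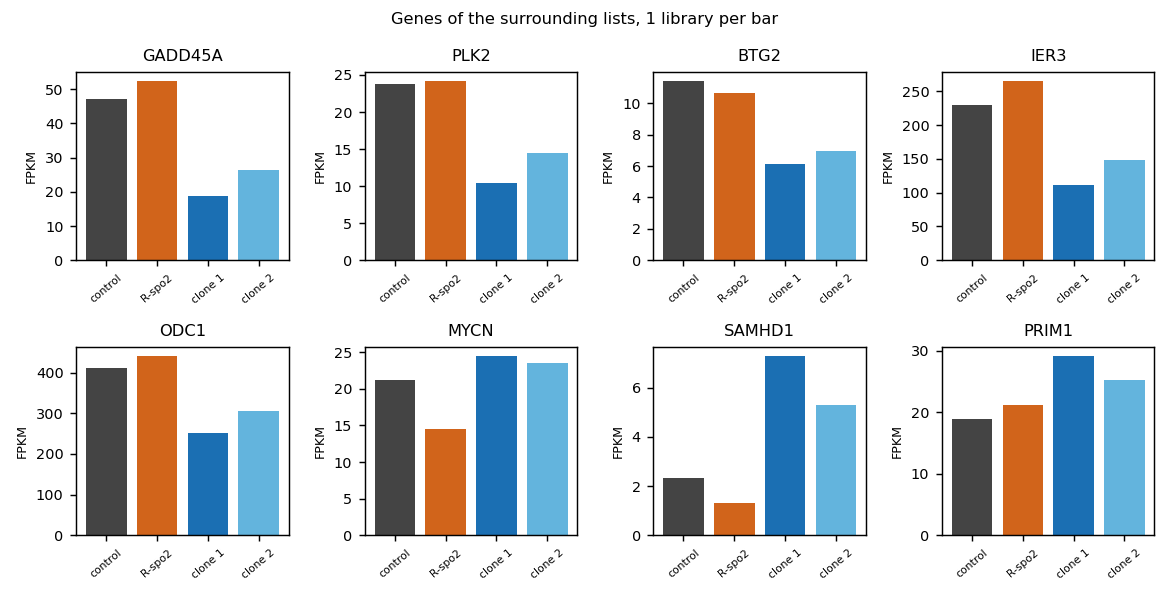
FPKM of 8 genes from the surrounding pathway lists, with 1 bar per library and axes from 0. GADD45A, PLK2, BTG2, IER3 and ODC1 are lower in both clones than in the wild type libraries, SAMHD1 and PRIM1 are higher in both clones, and MYCN is lowest with R-spondin2.

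Lists of genes known to peak in a phase were counted in the same way. They share genes with the other lists, such as PRIM1, RPA2 and TYMS for S phase and NEK2 and CENPA for G2 and mitosis. Their counts are therefore not independent of those of the other lists. Of 43 S-phase genes, 34 were lower with R-spondin2 (51.9% of all genes; list median, -0.07) and 27 were higher in both clones (42.5% of all genes; median of the mean, 0.09). Of 54 genes of G2 and mitosis, 29 were higher with R-spondin2 (47.8% of all genes; list median, 0.02), and 25 were lower and 19 higher in both clones (35.5% and 42.5% of all genes). The clones differed in this list, with 20 genes higher and 34 lower than control in clone 1 (median, -0.07) but 27 higher and 26 lower in clone 2 (median, 0.00). Leaving out the members, the medians were -0.07 and 0.07 for the 34 remaining S-phase genes and 0.02 and -0.05 for the 46 remaining genes of G2 and mitosis. In the list of G2 and mitosis CDCA3 was the highest with R-spondin2 (0.25) and FAM64A the highest in the clones (0.32), and NEK2, a centrosomal kinase at 23.8 FPKM in control and 17.5 to 18.7 FPKM in the other libraries, was lowest in both comparisons.

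Of 31 spindle and kinetochore genes, 17 were lower with R-spondin2 (51.9% of all genes) and 14 lower in both clones (35.5%), with CENPA, the centromeric histone, highest with R-spondin2 (0.22) and DLGAP5 highest in the clones (0.26). Of 16 genes of the anaphase-promoting complex and its regulators, 9 were lower in both clones. FZR1, the G1 activator of the complex, was the lowest of them, at 19.1 FPKM in control and 14.7 FPKM in each clone. ANAPC7 was the highest in the clones (0.20), and FBXO5, an inhibitor of the complex, was the highest with R-spondin2 (0.23), where CDC23 was the lowest (-0.11).

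**Figure D5:**
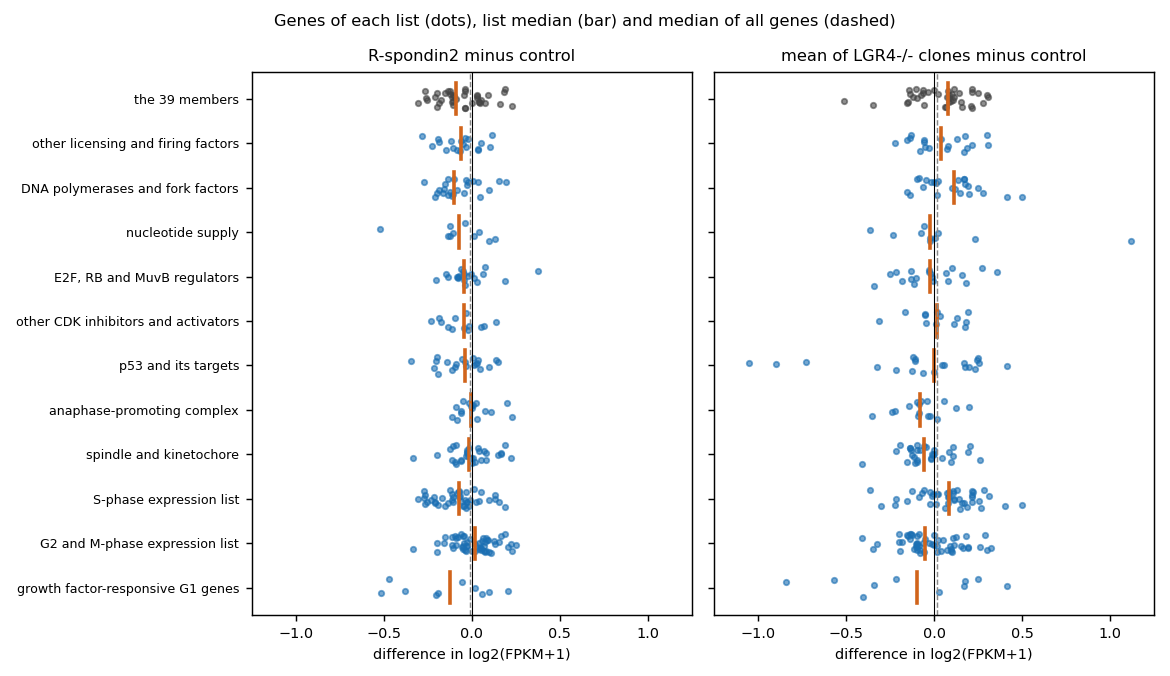
Differences in log2(FPKM+1) of single genes (dots) and the median (orange bar) for the 39 genes and for each surrounding list, with R-spondin2 on the left and the mean of the clones on the right; the dashed line is the median of all genes. The list medians lie close to the dashed line, and single genes such as SAMHD1 (1.12) and GADD45A (-1.05) lie farthest out in the clones.

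Markers of cell identity also differed between these libraries. The 8 pluripotency genes summed to 1389 FPKM in control, 1145 with R-spondin2, 2210.4 in clone 1 and 2068 in clone 2, and 7 of 8 were lower with R-spondin2 and 8 of 8 higher in both clones. The 10 primitive streak and mesoderm genes summed to 1137, 1492, 408 and 628 FPKM, with 9 of 10 higher with R-spondin2 and 10 of 10 lower in both clones. The part of these identities in the differences of the replication genes was not tested. The 4 endoderm genes summed to 203, 252, 78.6 and 104 FPKM, and 3 of 4 were lower in both clones.

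Stromal genes summed to 245, 309, 223 and 254 FPKM over 8 genes. Of the 7 past the minimum, 6 were higher with R-spondin2, 4 lower in both clones and 2 higher in both (COL1A1 and THY1). THY1 (36.1 to 64.5 FPKM), COL1A1 (64.0 to 83.6 FPKM) and COL1A2 (79.4 to 153 FPKM) were present in every library, while DCN was under 1 FPKM in each. THY1 was lower with R-spondin2 (-0.28) and higher in the clones (0.30 and 0.54). COL1A2 went the other way, at 0.41 with R-spondin2 and -0.52 and -0.23 in the clones. LUM was at 5.49 FPKM in control, 9.11 with R-spondin2, 0.16 in clone 1 and 1.45 in clone 2. PDGFRB was at 4.97, 5.52, 2.86 and 3.08 FPKM. Of the neuroectoderm genes PAX6, SOX1 and ZIC1 were under 1 FPKM in every library, as were CDH5, CD34 and PECAM1 of the blood and endothelium list. OTX2, which accounted for most of the neuroectoderm sum of 36.5 to 55.9 FPKM, and RUNX1, in a blood and endothelium sum of 5.32 to 8.62 FPKM, were lower in both clones than in control. SPN, of the same list, was at 2.67 FPKM in control, 2.31 with R-spondin2, 2.71 in clone 1 and 2.35 in clone 2. It was thus not lower in clone 1. PTPRC was at 1.52, 1.49, 1.29 and 1.18 FPKM, lower in both clones.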

How the data were processed

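RNA-SEQ libraries of 4 samples were analysed: control, R-spondin2 and LGR4-/- clones 1 and 2, grouped by their labels. The authors deposited FPKM values for 17894 genes to 2 decimals, already scaled for transcript length and depth. The submitters' processing notes name BWA, Bowtie, RSEM and hg19, without versions or the role of each. Since FPKM are not counts, no count model was fitted to them, and the reads implied below served for counting intervals only.

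Values were compared as log2(FPKM+1), a pseudocount of 1, among the 12697 genes whose mean reached 1 FPKM, and a gene was called at a 2-fold difference, for the clones when both passed in the same direction. A fold change on this scale understates that of low genes. The LGR4-/- clones were also compared with control in limma 3.58.1 (R 4.3.3) with a mean trend, Benjamini-Hochberg adjusted, which leaves 1 residual degree of freedom. With 1 control library there is no replicate check of any difference, and nothing states whether the clones came from separate cultures.

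To estimate depth, a read total was sought that turned low FPKM (below 0.6, transcripts under 1500 bases) into whole reads, among 8068 genes having 1 transcript with a GENCODE length. Between 76.3% and 77.7% of these values fell within 0.2 of a whole read, against 40.9% to 47.3% with shuffled lengths. Reads implied by a gene's shortest listed transcript gave 95% Clopper-Pearson intervals where at least 10 reads were implied in at least 1 of both libraries compared. They cover counting error only. Computations used Python 3.11.15, numpy 2.4.6, pandas 2.3.3, scipy 1.17.1 and matplotlib 3.10.9, and the scripts were tested on simulated data.

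The 40 genes and all lists were chosen with earlier results of these data known. Named with values were, within each role group, any gene past 1.5-fold, the gene with the largest difference with R-spondin2 and in the mean of the clones, the highest gene and genes under the minimum, and, of each surrounding list, the genes with the largest rise and fall in these comparisons; other genes, PLK2, BTG2 and ODC1 among them, were named after their values were seen where the text needed them. Alternatives tried were a pseudocount of 0.1, no minimum, a minimum of 5 FPKM, median-ratio rescaling of the libraries, a 1.5-fold threshold, each clone left out, limma without the trend and limma with all 4 libraries. Promoters are RefSeq sequences of GRCh38.p14, not of the build of the files.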

Additional observations from a re-analysis of the deposited data

How the results depend on the processing

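No member passed 2-fold with R-spondin2, in both clones or between the clones under any alternative tried. Of 694 alternative values, 33 moved, that is, a count by over 1.5 times or another value by at least 1 SD between the clones (for a median, the median SD of its genes). Of these, 19 were single members (CDK1, CDK6, CCNE2, CDKN1C, BUB1, PCNA, CCNB1 and PLK1) under the pseudocount or rescaling, and 4 were medians of lists with a clone left out. For a single member, leaving out a clone or changing the minimum could not count as a move by this measure. The SD also rests on the clones alone and is near 0 where they agree, as for CDK1 (clone 2 minus clone 1, 0.0009) and BUB1 (-0.005). Small shifts could then count as moves, so this list does not rank genes by their dependence on the processing. The median of the genes of G2 and mitosis in the clones, -0.05, was 0.00 without clone 1. The counts over all genes depended on the setting. With a pseudocount of 0.1 they were 139 genes with R-spondin2, 345 in both clones and 141 between the clones, where the reported counts were 28, 167 and 32. With a minimum of 5 FPKM they were 14 with R-spondin2 and 12 between the clones, and at 1.5-fold 254, 724 and 306. With 1 clone left out, 191 to 447 genes passed in the remaining clone. limma called 0 genes (2342 at an unadjusted p under 0.05) but 92 after median-ratio rescaling, 44 higher and 48 lower, none of them a member. The lowest adjusted p of a member in limma ranged from 0.0948 to 0.334 over the alternatives.

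The 6 MCM2-7 genes remained lower with R-spondin2 and higher in both clones after median-ratio rescaling, which was added after the data were seen. Rescaling turned the sign of the differences of ORC6 with R-spondin2 and CDC20 in the clones, both under 0.02 in size. Without clone 1 the sign turned for CCND1, CCND3, CDK2, CDKN1A and CDT1, and without clone 2 for CCND2, CDC20 and CDKN1B, all at most 0.11 in the mean of the clones. No paired analysis was possible because control and R-spondin2 carry no replicate number and have 1 library each. With 1 control and 1 R-spondin2 library, differences between cultures or sorts and those of the treatment cannot be told apart, and the clones were compared with that same control library. Depth limits CDKN2A and the intervals of CCNE2 and CDKN1C. The interval of CDK6 also depends on the transcript length used, which was 1465 bases where its longest listed transcript has 11612.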

Other observations

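A wider set of cell cycle genes was taken, after the data were seen, from the process terms that the authors deposited beside the values. It held 779 genes past the minimum whose terms name the cell cycle, mitosis or DNA replication, 35 of them among the 40 genes described. Of the 779 genes, 12 passed 2-fold in both clones (1.54%, against 1.32% of all genes), 5 higher and 7 lower than control. With R-spondin2, 2 passed 2-fold, PDGFA and SOX2, where 0.221% of all genes did.

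The 12 genes hold few parts of the cell cycle machinery. Higher in both clones were TERF1, a telomere-binding protein, at 65.3 FPKM in control, 41.8 with R-spondin2, 180.0 in clone 1 and 133 in clone 2, and USP44, a deubiquitinase of the spindle checkpoint, at 8.99, 4.53, 27.0 and 22.6 FPKM. Both were lowest with R-spondin2 and highest in clone 1, the order of the MCM2-7 genes at a larger size. TUBB4A, a tubulin, was at 2.57, 1.69, 13.6 and 8.73 FPKM, and SOX2 and PSMB8 were the other two that were higher. Lower in both clones were PLAGL1, a growth-suppressing zinc finger factor, at 8.22, 9.33, 1.96 and 2.83 FPKM, and the developmental regulators BMP2, BMP4, FGF10, FOXC1, GATA6 and TBX3. BMP4 was at 67.4 FPKM in control, 98.3 with R-spondin2, 9.65 in clone 1 and 22.5 in clone 2, so that R-spondin2 was the highest library and the clones the lowest.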
